A study of Mus musculus with 44 samples.

Results

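The m6A peaks of livers exposed to Aroclor1260 and PCB126 together were compared with those of livers given vehicle. Both groups were male C57Bl/6J mice, an inbred strain, on a high-fat diet with 42% of its energy from fat. The combination animals received a single oral exposure to Aroclor1260 and PCB126 at week 2 of a 12-week study, and the control animals received vehicle. Neither dose nor age is stated in the sources at hand. Aroclor1260 was sold as a blend of heavily chlorinated biphenyls, and PCB126 is a dioxin-like congener that binds the aryl hydrocarbon receptor. Each group had 5 m6A immunoprecipitates, 5 input libraries and 1 pooled immunoprecipitate with control IgG, which makes 22 of the 44 libraries of the series. The authors called peaks once for a whole treatment, against its inputs or against its IgG pool, and the combination and control lists called with the same kind of reference were compared. The 4 lists held 8678 of the 17573 peaks of the series and 1175 of its 1512 gene identifiers. A list has no value for any single animal, so no difference could be set against the spread between animals and no test was made. Sequencing depth is unknown for these lists, and deeper libraries can give longer lists.

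N6-methyladenosine is the commonest internal modification of messenger RNA. A methyltransferase complex built on METTL3 and METTL14 writes it, FTO and ALKBH5 remove it, and proteins with a YTH domain bind it and direct splicing, translation or decay of the transcript. It lies mostly in a sequence context with the core GGAC and is densest around stop codons and in long last exons. In a peak list, a peak marks a stretch where the immunoprecipitate holds more reads than the reference, so peaks depend on the abundance of a transcript as well as on its methylation. Fewer cells of a type and less RNA per cell cannot be told apart in whole liver.

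Genome sequence was at hand where a peak reached into a RefSeq start window, the stretch from 250 bases before to 50 bases after an annotated gene start. Of the 2284 combination peaks against input, 27 had at least 50 exonic bases inside such a window. The core GGAC, read on the strand of the peak, occurred in 11 of these 27 (40.7%), against 29.5% of all start windows trimmed to the same lengths. The peak bases are exonic, whereas most of a start window lies before the gene start. Most of these peaks also lay on the strand opposite to the window gene. The shares therefore compare different kinds of sequence and cannot show whether the core is enriched in peaks. Among the 27 peaks, the core occurred in 10 of the 15 that were absent from the control list and in 1 of the 12 that were also in it. Some of these peaks share a window with another peak, as those of Gabarapl1 and ENSMUSG00000097675 with the core do. The stretches read ran from 50 to 298 bases and were not matched between absent and shared peaks. No difference is called from this split. The sites printed here were chosen to show the core in exposed-liver peaks with a named gene. The start window is that of the gene itself for Fmo5 and Dnajb1 and that of a neighbouring gene for the others. They are RefSeq sequences of GRCm38.p6 (mm10), 5′ to 3′ on the strand of the peak, with GGAC in capitals and 10 bases on each side.
Cic, chr7:25271036-25271059, plus strand: aggctgagcgGGACcctggagctg
Pfkfb2, chr1:130717130-130717153, minus strand: gaggtcagaaGGACccaccaaaca
Rbbp6, chr7:122970670-122970693, plus strand: tgagcgagtgGGACccagccgggt
Hyal1, chr9:107580489-107580512, plus strand: caacccacgaGGACtggagaccct
Sdc1, chr12:8771439-8771462, plus strand: gcagaggaagGGACctggcagtcg
Dnajb1, chr8:83608420-83608443, plus strand: gctaccacccGGACaagaacaagg
Fmo5, chr3:97629008-97629031, plus strand: tctttctttaGGACaagtgacgca
The Cic site lay in a peak with a fold enrichment of 4.00 and the Pfkfb2 site in one with 2.67, and both genes had no control peak with either reference. The Rbbp6 peak had a fold of 7.85 and the Hyal1 peak 3.06. The Fmo5 site lay in a peak with a fold of 1.29 that was also in the control list, and the other peaks shown were absent from it. A match describes the letters of the window and does not show which base was methylated.

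Against input, the combination list held 2284 peaks at 750 identifiers and the control list 620 peaks at 267. Against IgG, the combination list held 3683 peaks at 1045 identifiers and the control list 2091 peaks at 627. A peak was shared when its span met one of the other list by 1 bp or more, on the same strand. Of the 2284 combination peaks against input, 1817 had no counterpart in the control list, which is 79.6% (95% Wilson interval 77.9 to 81.2%). Of the control peaks, 542 were found after the combination, or 87.4% (84.6 to 89.8%). Against IgG, 59.7% (58.1 to 61.2%) of the combination peaks had no control counterpart, and 74.6% (72.7 to 76.4%) of the control peaks were found. These intervals cover counting error only and neither the dependence between peaks of a gene nor the spread between animals. The share absent against input ran from 62.5% on chromosome 13 to 92.8% on chromosome 17. Against IgG the shares on these chromosomes were 60.0% and 61.2%. Against input, chromosome 13 had 80 combination and 44 control peaks, and chromosome 17 had 83 and 7. On the mitochondrial chromosome, 7 of 10 combination peaks against input were absent (70.0%). With lists trimmed to equal length, ranked by false discovery rate, 75.3% of the combination peaks were absent and 30.5% of the control peaks were found. Ranked by fold, an alternative added after the data were seen, the values were 55.3% and 56.5%.

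**Figure D1:**
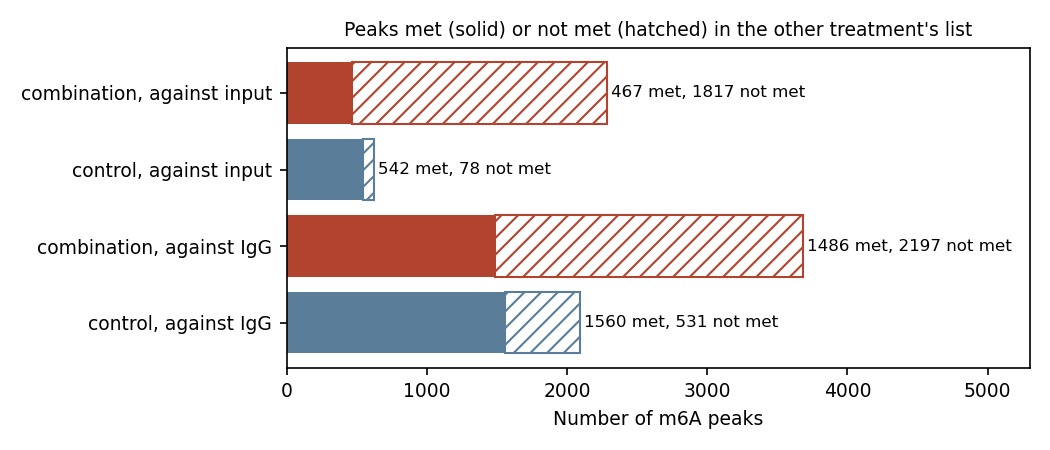
Number of m6A peaks in the combination and control lists for each reference, with solid bars for peaks met by a peak of the other treatment's list and hatched bars for peaks not met. Against input, 1817 combination peaks and 78 control peaks were not met, and against IgG 2197 and 531.

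The lists were unequal between strands. Of the 1512 identifiers in the series, 89.2% lay on the plus strand, whereas 49.9% of the RefSeq protein-coding genes of known strand do. In the 4 lists compared here, 148 of 529 plus-strand protein-coding members of the gene lists described below had a peak, against 5 of 537 minus-strand members. The absence of a minus-strand gene from these lists therefore says little about its methylation. Gene names rest on the position and strand of the peaks. The strand of some RefSeq genes was not at hand, and the word locus marks a name that identifiers of both strands carry.

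Peaks absent from the control list were weaker and narrower than shared ones. Against input, the 1817 absent peaks had a median fold of 2.18 and a median exonic width of 151 bp, and the 467 shared combination peaks had 4.16 and 395 bp. A fold of at least 2 was reached by 60.5% of the absent peaks and by 87.4% of the shared ones. Fold enrichment is the authors' ratio of immunoprecipitate over reference for a single peak. It belongs to its own list, and values from several lists are set side by side here without calling a change. A wide span meets another one more easily, so part of the gap in width follows from the definition of sharing. Both classes lay toward the 3′ end of the gene. Among the 1325 absent and 333 shared peaks in genes of known strand, the median relative position was 0.809 and 0.787 of the gene span, counted from 0 at its 5′ end. Each shared combination peak was set against the widest single control peak that it met. Against input, the median width was 395 bp after the combination and 251 bp for these control peaks. Of the 467, 286 were wider, 89 equal and 92 narrower than that control peak. For the 96 that met more than 1 control peak, the control bases were not summed. Against IgG, the medians were 251 bp in both lists, with 698 wider, 219 equal and 569 narrower.

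**Figure D2:**
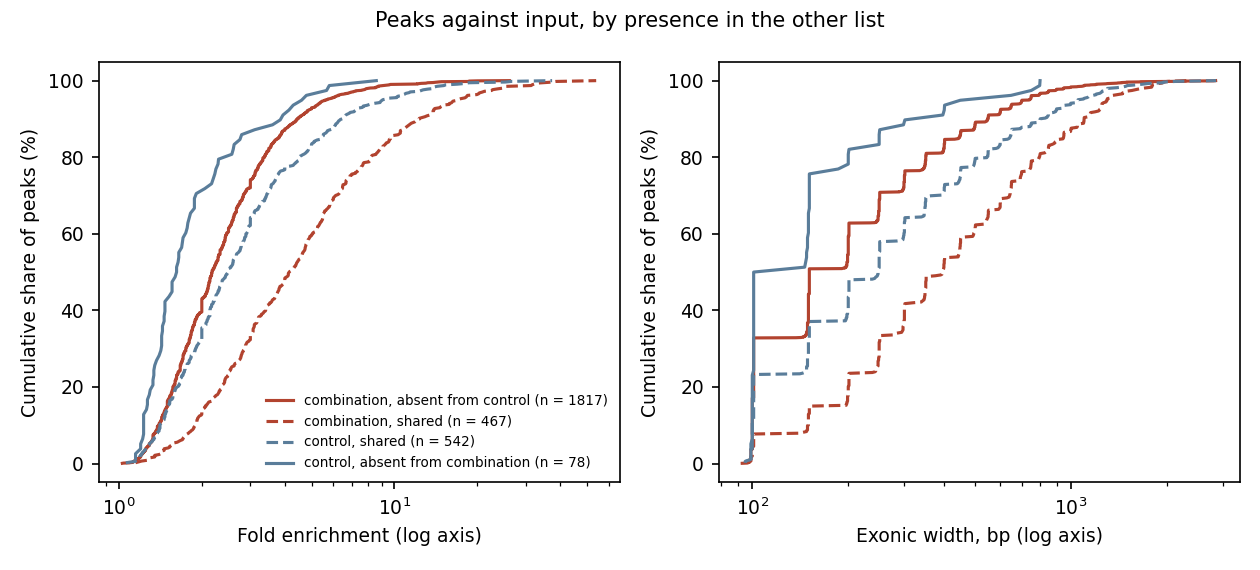
Cumulative share of peaks against input by fold enrichment (left) and exonic width in bp (right), both on log axes, for combination peaks (red) and control peaks (blue) that were absent from (solid) or shared with (dashed) the other list. Combination peaks absent from the control, with a median fold of 2.18, lie to the left of shared combination peaks, with a median of 4.16.

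Most of the new peaks lay in genes that had no control peak. Of the 1817 absent peaks against input, 222 (12.2%, 10.8 to 13.8%) fell in an identifier with a control peak elsewhere and 1595 in an identifier without any. Against IgG, 567 of 2197 (25.8%, 24.0 to 27.7%) fell in an identifier with a control peak. An identifier was called gained when it had a combination peak and no control peak, and lost in the opposite case. Against input, 504 of the 771 identifiers in either list were gained (65.4%), 21 were lost (2.72%) and 246 were in both. Against IgG, 503 of 1130 were gained (44.5%), 85 were lost (7.52%) and 542 were in both. Gain with both references held for 211 of the 1175 identifiers (18.0%), and loss with both held for 5 (0.426%). These counts compare lists of unequal length. With lists trimmed to equal length, ranked by false discovery rate, 180 identifiers were gained and 169 lost against input, and 59 were gained and 56 lost with both references. Ranked by fold, a choice made after seeing the data, 247 were gained and 62 lost against input, and 101 and 14 with both.

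Much of the gain depended on the reference. Of the 504 identifiers gained against input, 259 (51.4%) had a control peak against IgG, 211 (41.9%) were gained with IgG too, and 34 (6.75%) had no peak in either IgG list. Of the 21 lost against input, 10 had a combination peak against IgG. The 211 gained with both references comprised 192 protein-coding genes and 5 long noncoding RNAs, and 198 of them carried a name. They lay on the plus strand in 186 cases. A single combination peak against input was listed for 79, and 5 or more for 38. The highest fold reached 2 with both references in 182 and 5 in 36. With either reference, 159 of the 211 also had a peak after PCB126 alone and 71 after Aroclor1260 alone. Of the 25 with the highest folds, 4 stayed gained when each list was trimmed to an equal number of peaks ranked by false discovery rate. That ranking removed Arhgap29, Egfr and Cic among others, whose peaks had high folds and did not rank among the lowest false discovery rates. With the trimmed lists ranked by fold, all 25 stayed gained, which carries little weight because they were chosen by their folds.

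Arhgap29, which encodes a GTPase-activating protein, headed the gained genes. It had 3 combination peaks against input, with folds of 1.80, 1.88 and 26.1, and 4 against IgG, with folds of 2.20, 1.80, 2.80 and 63.6. The strongest peak spanned chr3:122012137-122014861 and was the only one of the 3 above a fold of 2. Ctso, the lysosomal protease cathepsin O, had 1 peak against input with a fold of 18.7 and 4 against IgG with folds of 3.40, 33.6, 5.40 and 4.40. The input peak of Ctso was 996 bp wide, and 3 of its IgG peaks fell within or next to the same stretch. Tnrc6c, which acts with Argonaute in silencing by microRNAs, had 8 peaks against input and 10 against IgG, with a highest fold of 12.1 in each. Its other input peaks had folds between 1.67 and 4.40. None of these 3 genes had a control peak with either reference. Arhgap29 had 2 peaks after Aroclor1260 alone, both against IgG, and 4 with each reference after PCB126 alone. Ctso and Tnrc6c had no peak after Aroclor1260 alone and had peaks with both references after PCB126 alone. Comparisons of the single exposures with vehicle use the same control lists, so they are not independent of this one.

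**Figure D3:**
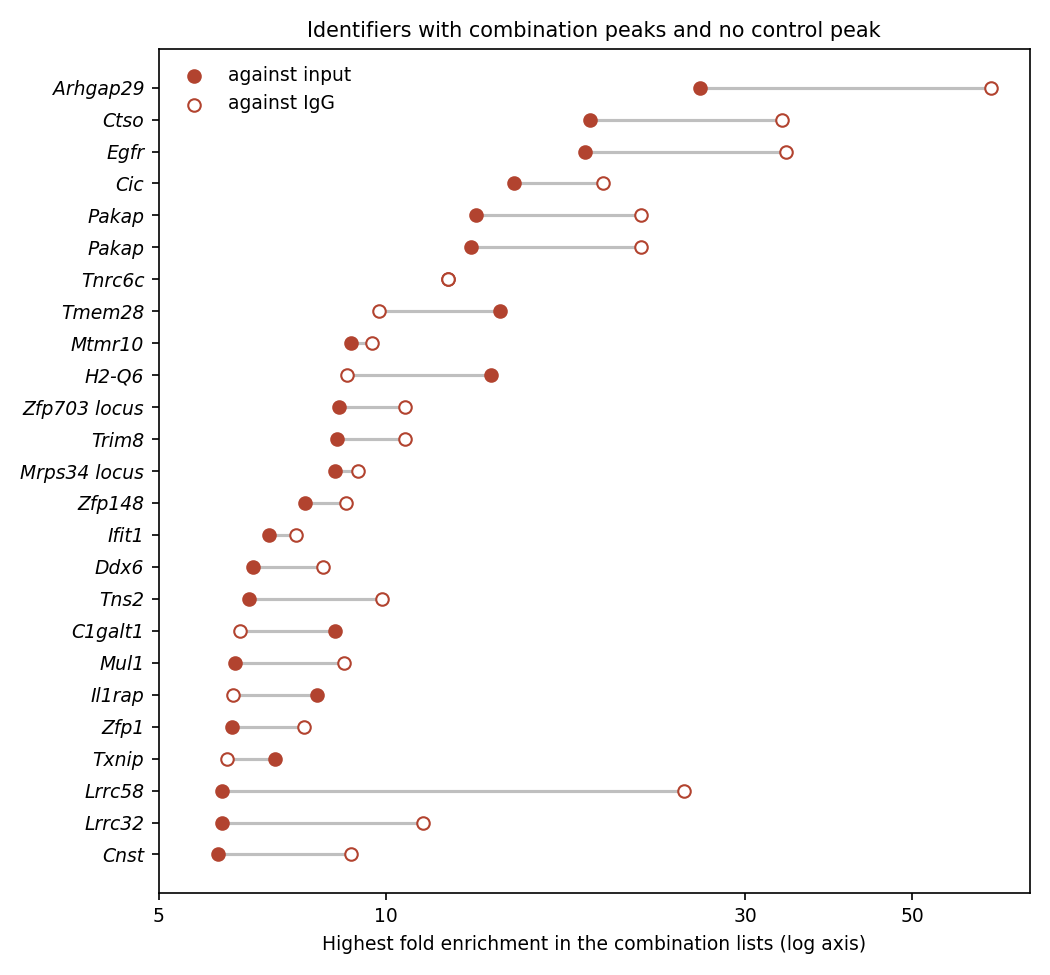
Highest fold enrichment in the combination lists, on a log axis, for the 25 named identifiers with the highest values among those gained with both references, against input (filled) and IgG (open). Arhgap29, at 26.1 and 63.6, lies highest with both references, and Pakap appears with 2 identifiers.

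The remaining genes at the head of the gained list had various roles. Here and in what follows, a pair of folds or peak numbers for a treatment gives the value against input first and against IgG second. Pakap, a fusion of a paralemmin and an A-kinase anchoring gene, appeared with 2 identifiers whose highest folds were 13.2 and 13 against input and 21.8 for each against IgG. Reads may be counted under both identifiers. Tmem28 had folds of 14.2 against input and 9.80 against IgG, and Mtmr10, of the myotubularin family, had 9 and 9.60. H2-Q6, a class I antigen-presenting gene that is uncertain because of near-identical relatives, had 13.8 and 8.90. Ifit1, an interferon-induced gene, had 3 peaks up to 7 against input and 5 up to 7.60 against IgG. Ddx6, an RNA helicase of mRNA decay, had 6.67 and 8.27. Il1rap, the accessory chain of the interleukin-1 receptor, had 8.11 and 6.27. Tns2, a focal adhesion protein, had 6.58 and 9.90, and C1galt1, which extends O-linked glycans, had 8.57 and 6.40. Mul1, a mitochondrial ubiquitin ligase, had 6.31 and 8.80. Lrrc58 had 6.07 and 24.9, Lrrc32 6.07 and 11.2 and Cnst 6.00 and 9. The name Mrps34, with 8.56 and 9.20, belongs to a minus-strand identifier at that locus, and the plus-strand one had 2 control peaks up to 5.30 against IgG. The other identifiers here had no control peak, and each value is the highest for that identifier in its list.

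Gene lists were counted for members with a peak, and these counts are to be read beside the share gained over all identifiers. That share was 65.4% against input, 44.5% against IgG and 18.0% with both references. The combination lists held more identifiers than the control lists with each reference, so a higher count after the combination is not particular to a gene list. The epidermal growth factor receptor and its signalling had 4 of 36 members with a peak after the combination and 2 of 36 in the control, with either reference. Egfr, the receptor itself, had 6 combination peaks against input with folds of 1.46, 1.77, 18.4, 4.94, 1.33 and 2.00 from low to high coordinate. Against IgG it also had 6, with folds of 1.64, 2.43, 2.45, 34.0, 9.40 and 4.90. The strongest, at chr11:16908973-16912371 against input, was made of 5 exonic blocks. Gab1, an adaptor of the receptor, had 1 peak with folds of 4.17 against input and 5.20 against IgG over the same span, chr8:80879622-80879971. Neither Egfr nor Gab1 had a control peak. After PCB126 alone, Egfr had folds up to 23.9 and 51.8, and Gab1 had 4.17 and 5.40. After Aroclor1260 alone, Egfr had 10 peaks up to 11.1 against IgG and none against input, and Gab1 had none. The feedback inhibitors Errfi1 and Dusp6 were in all 4 lists, and no further member of this gene list had a peak in any of them. Errfi1, which blocks the receptor's kinase, had folds of 7.70 against input and 7.34 against IgG after the combination, and 3.74 and 4.92 in the control. Dusp6, a phosphatase of the downstream kinase ERK, had 7.67 and 13.4 after the combination, and 3.71 and 4.92 in the control.

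Other growth factor and cytokine genes had 9 of 38 members with a peak against input after the combination and 5 in the control, and against IgG 12 and 8. Igf1, the main growth factor that liver secretes, had 11 peaks with each reference after the combination and none in the control. Its folds ran from 1.52 to 3.90 against input and from 1.80 to 5.80 against IgG, and it had no peak after either single exposure. Met, the receptor of hepatocyte growth factor, had 12 combination peaks up to 5.40 against IgG alone and none in the control. Acvr2a, an activin receptor, had a fold of 20.0 against input and 27.6 against IgG after the combination, and in the control no peak against input and 15 against IgG. Il6st, the signalling chain of the interleukin-6 family, had 4 combination peaks with each reference, up to 8.50 against input and 10.3 against IgG, and in the control 9 peaks up to 9.20 against IgG alone. Klb, a coreceptor of FGF21, had 5 and 6 combination peaks, and 5 control peaks against IgG alone. For Il6st, Klb and Acvr2a the gain thus held with input only.

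Xenobiotic receptors gave few peaks. Of 17 members of the aryl hydrocarbon receptor list, only Tiparp, an ADP-ribosyltransferase that the receptor induces, had a peak in these 4 lists. It had 2 combination peaks against IgG, with folds of 13 and 3.40 at chr3:65531298-65531595 and chr3:65531744-65531991, none against input, and none in the control. The list has 8 members on the minus strand. Targets and partners of the receptors CAR and PXR had 5 of 30 members with a combination peak against input and 0 in the control, and against IgG 4 and 3. All 5 in either input list were thus gained, beside 65.4% over all identifiers. Against IgG, 1 of 4 was gained, beside 44.5%. Cyp2c50, a cytochrome P450 with close relatives, was gained with both references, with 4 peaks up to 3.12 against input and 2 up to 3.75 against IgG. Cyp2c29 had combination folds up to 5.32 and 9.33, and in the control a fold of 2.10 against IgG alone. Por, which passes electrons to all microsomal P450 enzymes, and Rxra, the partner of these receptors, likewise had control peaks against IgG alone, 7 and 8 of them. Cyp2c37 had 3 combination peaks up to 2.67 against input and none elsewhere. Among other P450 genes, Cyp2a12 (2.90 against input, 2.32 against IgG) and Cyp4a12a (3.45 and 2.64) were gained with both references. Cyp2f2 had a control peak of 1.20 against input and no combination peak. Members of these families share sequence, and reads could be split between them.

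The core of the element that the aryl hydrocarbon receptor binds, GCGTG on either strand, was counted in RefSeq start windows of 300 bases. Windows on chromosome 18 were again left out. It occurred in 83 of 140 protein-coding genes gained with both references that had a window (59.3%, 51.0 to 67.1%). It occurred in 81 of 168 genes in both input lists (48.2%, 40.8 to 55.7%) and in 41.4% of the 17462 protein-coding genes with a window. A gene counted when any of its windows held the core. These are counts of letters, and liver expression, base composition and the number of windows per gene were not matched between the sets.

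Lipid and bile acid genes were next. Lipogenesis and triglyceride storage had 5 of 38 members with a peak against input after the combination and 1 in the control, and 6 and 5 against IgG. Scd1, the desaturase that makes oleate, had 9 combination peaks against input, with folds between 1.41 and 4.12, and 7 against IgG, between 2.00 and 5.20. It had no control peak and is named by place. Lpin2, a phosphatidate phosphatase, had 15 combination peaks up to 5.49 against input and 13 up to 5.00 against IgG, and in the control 9 up to 6.20 against IgG alone. Pparg, the nuclear receptor that drives fat storage, had 4 combination peaks up to 3.00 against input and none against IgG. The bile acid list had 7 of 30 members against input after the combination and 2 in the control, and 7 and 5 against IgG. Nr0b2, the repressor SHP, had folds of 3.30 against input and 3.92 against IgG, and Abcg8, which exports sterols into bile, 4.10 and 4.04, and neither had a control peak.

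Fatty acid oxidation depended on the reference. The list had 5 of 30 members against input after the combination and 2 in the control, and 8 in each treatment against IgG, where none was gained or lost. Cpt1a, which admits fatty acids to mitochondria, had 1 combination peak of 3.90 against input and 4.55 against IgG, and in the control 9 peaks up to 3.72 against IgG alone. Apolipoprotein genes had 8 of 22 members after the combination and 6 in the control against input. Against IgG there were 7 and 10, where Apoh, Angptl8 and Apoc1 had a control peak and no combination peak. Their control folds were 1.65, 3.40 and 1.20, and Apoc1 had a combination fold of 2.17 against input.

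Glutathione, NRF2 target and metallothionein genes had 7 of 34 members against input after the combination and 2 in the control, and 8 and 2 against IgG. Gclm, the modifier subunit of glutamate-cysteine ligase in glutathione synthesis, had 3 peaks up to 2.83 against input and 4 up to 3.43 against IgG. Gpx1, a glutathione peroxidase, had 1.56 and 1.45, and Gsta3, a glutathione transferase, had 3.08 and 1.81. None of these 3 had a control peak. Gclc, the catalytic partner of Gclm, had 5 combination peaks up to 5.00 against IgG alone. Mt2, a metallothionein, had 1 combination peak of 2.18 against input and none against IgG. Selenoprotein genes had 4 of 25 members after the combination and 0 in the control against IgG, namely Selenop, Selenot, Gpx1 and Msrb1, with folds up to 2.32, 2.70, 1.45 and 2.20. These few members stand beside 44.5% gained over all identifiers against IgG. Against input, Gpx1 was the only member with a peak.

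Mitochondrially encoded genes had 6 of 37 members after the combination and 2 in the control against input, and 7 and 3 against IgG. ND2, a subunit of respiratory complex I, had 2 combination peaks with each reference, up to 5.19 against input and 4.37 against IgG. The large ribosomal RNA mt-Rnr2 had folds of 4.70 and 3.26 and ND6, another subunit of complex I, 4.70 and 3.98. None of these had a control peak. ND4 had 8.71 and 8.33 after the combination, and 2.77 and 2.73 in the control. ND5 had 8.73 and 8.87 after the combination, and in the control 2.53 against IgG alone. COX1, a subunit of cytochrome oxidase, had 2.62 and 2.30 after the combination, and 1.21 and 1.55 in the control. RefSeq strand was not at hand for these genes, whose transcripts come from both strands of one molecule.

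Plasma protein genes were checked as products of the hepatocyte. The acute phase and carrier list had 11 of 46 members against input after the combination and 4 in the control, and 13 and 9 against IgG. Mug1, a protease inhibitor with close relatives, had folds of 3.21 and 3.20, Trf, which encodes transferrin, 3.50 and 4.60, Rbp4, the retinol carrier, 2.75 and 2.00, and Ttr, the thyroxine carrier, 1.40 and 1.65. None had a control peak. Trf appeared with 2 identifiers, and the value against IgG is the higher of them. Crp was in all 4 lists, with 15.8 and 14.1 after the combination, and 10.3 and 18.1 in the control. In the coagulation list, 7 of 25 members had a peak against input after the combination and 4 in the control, and against IgG 9 and 8. F9, coagulation factor IX, had 5 peaks up to 4.04 and 6 up to 5.05, and Fgb, the fibrinogen beta chain, had 2.46 and 4.80, with no control peak. Fga, the alpha chain, was in all 4 lists, with 25 and 21.8 after the combination, and 11 and 12.8 in the control. Plg and Serpinc1 had control peaks against IgG alone, with folds of 1.65 and 2.00, and no combination peak.

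Cell type markers were counted in the same way. Of 15 hepatocyte markers, 9 had a peak after the combination and 4 in the control against input, and 8 and 5 against IgG. Endothelial markers had 6 of 26 and 4 of 26 against input and 8 and 4 against IgG. Arhgap29, the strongest gained gene, was on the endothelial list, as was Ccm2, a scaffold of vessel integrity, with folds of 5.85 and 3.50 and no control peak. The list was drawn up with earlier results of these data known, so the place of Arhgap29 on it is not a finding. The other endothelial members with a peak against input, Eng, Klf2, Bmp2 and Ptprb, had one in both treatments. Cdh5 and Ehd3, both endothelial, had combination peaks against IgG alone. The defining endothelial genes Pecam1, Kdr and Stab2 had no peak in the 4 lists. Kdr and Stab2 lie on the minus strand, where few genes had any peak, and the strand of Pecam1 was not at hand, so their absence carries little information. Stellate cell markers Dcn and Hand2 had peaks in both treatments, Dcn with 3.30 after the combination and none in the control against input, and 5.00 and 2.20 against IgG. Of the 16 Kupffer cell markers only Cd5l had a peak, up to 1.96 and 2.97 after the combination, and in the control 2.20 against IgG alone. The 14 lymphocyte and 10 cholangiocyte markers had none. The part of cell composition in the gains was not tested.

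Transcription factors of the immediate early type had 9 of 29 members after the combination and 6 in the control against input, and 8 in each against IgG. Jun, a subunit of AP-1, was gained with both references, with 2 peaks up to 4.83 against input and 3 up to 6.40 against IgG. Its identifier lies on the minus strand. Egr1 had 8.86 and 13.2 after the combination, and in the control 5.10 against IgG alone. Myc had 1 combination peak of 18.2 against input and none against IgG, and in the control 8.93 and 18.2. Cebpb, a hepatocyte and acute phase factor, was listed with 3.15 and 5.97 after the combination, and 13.2 and 9.31 in the control. Cebpa had 12.3 and 15.4 after the combination, and 5.08 and 10.2 in the control. Zinc finger genes, mostly transcriptional regulators, had 20 of 461 members after the combination and 7 in the control against input, and 23 and 14 against IgG. Those gained with both references were Zfp1, Zfp148, Zfp574, Zfp62, Zfp637, Zfp638, Zfp646 and the Zfp703 locus. The plus-strand identifier at the Zfp703 locus had 8.67 and 10.6, and Zfp62, which ranked highest against IgG, had 5.14 and 11.8. Zfp148 had 7.81 and 8.87, and Zfp1 had 6.25 and 7.80.

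Chromatin regulators differed between the references. Against input, 8 of 74 members had a combination peak and 0 had a control peak, so that all 8 in either list were gained, beside 65.4% over all identifiers. Against IgG, 10 members had a combination peak and 10 a control peak, with 1 gained and 1 lost of 11, beside 44.5% over all identifiers. Kmt2e, Setd1b, Setd2, Nsd1, Ash1l, Arid1b and Smarca2 had between 8 and 12 combination peaks each against input. All 7 of these had control peaks against IgG, between 8 and 13 each. Setd2, the enzyme that trimethylates lysine on histone H3 during elongation, had 10 combination peaks up to 12.5 against input and 17 up to 21.5 against IgG, and in the control 11 up to 16.2 against IgG alone. Cic, a repressor that receptor tyrosine kinase signalling inactivates, was the member without any control peak. Its 5 combination peaks against input had folds of 4.00, 3.44, 14.8, 1.36 and 2.53, and its 7 against IgG had 5.20, 5.60, 5.90, 19.4, 3.60, 1.20 and 2.40. The strongest spanned chr7:25271973-25273622, and the peak with the printed site lies 5′ of it. Cic also had peaks after PCB126 alone with both references, and after Aroclor1260 alone against IgG.

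**Figure D4:**
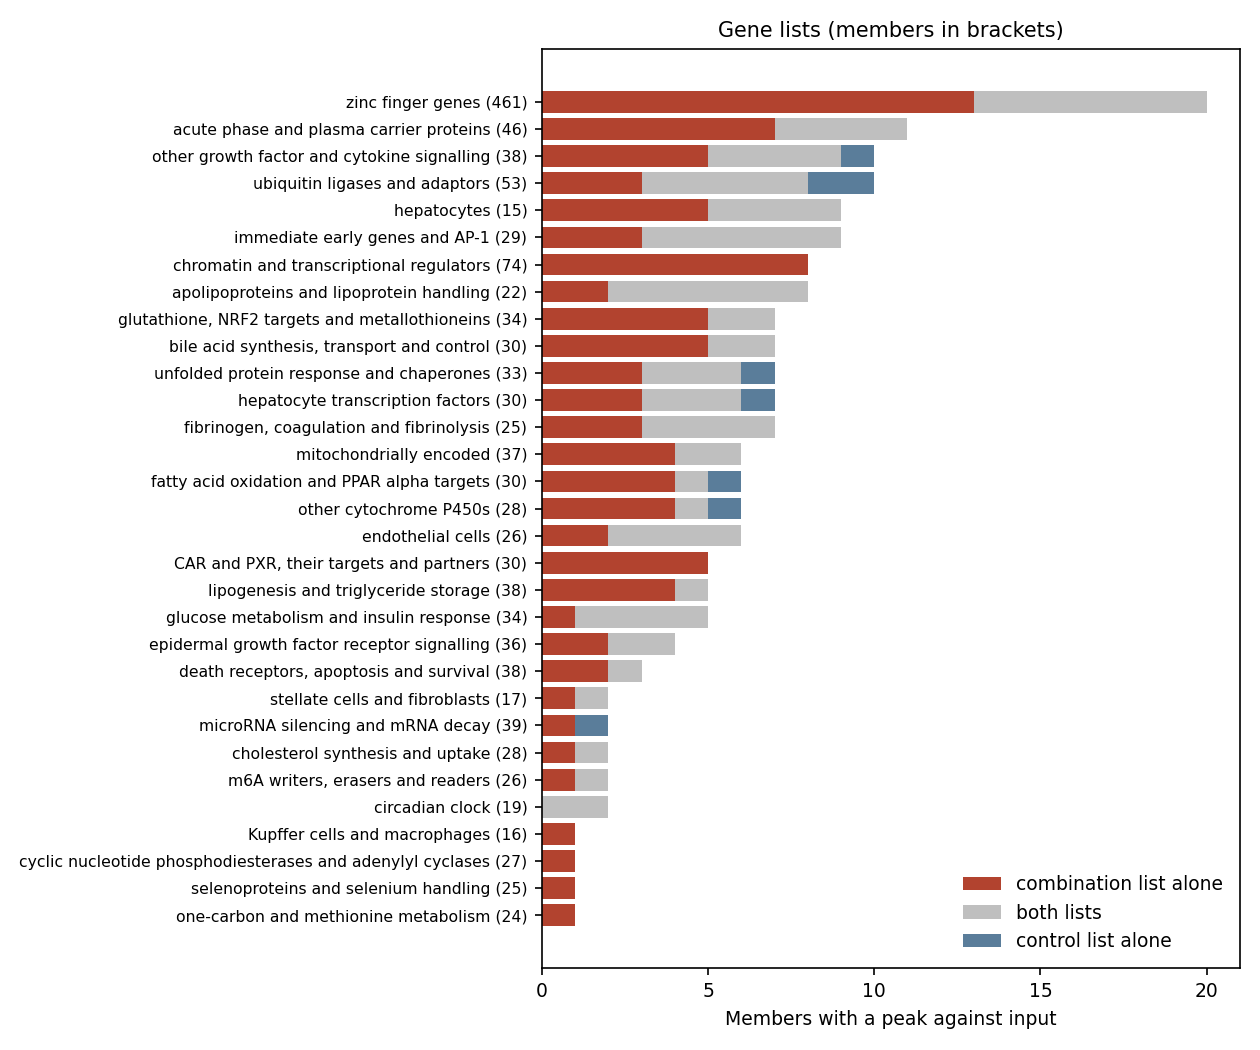
Number of members of each gene list with a peak against input, divided into members in the combination list alone (red), in both lists (grey) and in the control list alone (blue), with the size of each list in brackets. The 8 chromatin regulators and 5 CAR and PXR genes lie in the combination list alone, beside 65.4% of all identifiers in either list. Lists with no member against input are not drawn.

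The m6A machinery itself had 2 of 26 members after the combination and 1 in the control against input, and 3 in each against IgG. Ythdf3, a cytoplasmic reader, was in all 4 lists, with 20.2 and 113 after the combination, and 10.2 and 36.4 in the control. Its value of 113 was the highest fold of the 4 lists. Ythdc1, the nuclear reader, had 2.67 and 6.00 after the combination, and in the control 3.60 against IgG alone. Zc3h13, of the writer complex, had peaks in both treatments against IgG alone, up to 9.53 after the combination and 10.8 in the control. None of the 3 was gained with both references. In the remaining lists, those gained with both were Txnip, a glucose-responsive inhibitor of thioredoxin, with 7.14 and 6.15, Mcl1, an inhibitor of apoptosis, with 4.73 and 5.50, the ubiquitin ligases Trim8 with 8.62 and 10.6 and Rnf43 with 5.67 and 10.6, and Pde3b, a phosphodiesterase of insulin action, with 3.84 and 8.20. The unfolded protein response, the clock, hepatocyte transcription factors and one-carbon metabolism had no member gained with both. Of these, the clock gene Tef had combination peaks against IgG alone, up to 4.60. Dmgdh, the only one-carbon gene with a peak, had 1 of 1.73 after the combination against input.

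Losses were few in these lists of unequal length, and 56 identifiers were lost with both references at an equal number of peaks ranked by false discovery rate. In the full lists, the 5 identifiers lost with both references were Slf2, 4632415L05Rik, 2 at the Foxq1 locus on opposite strands, and ENSMUSG00000097221, which was not named. Slf2, a factor of DNA repair, had control folds of 3.11 against input and 4.20 against IgG. 4632415L05Rik had 2.62 and 2.20. The plus-strand identifier at the Foxq1 locus had 4 control peaks up to 2.23 against input and 3 up to 4.20 against IgG, and the minus-strand one had 1.56 and 1.87. Both had peaks after PCB126 alone with both references, and the minus-strand one also after Aroclor1260 alone. Slf2 likewise had peaks after PCB126 alone with both references, and 4632415L05Rik had them against input only. Neither Slf2 nor 4632415L05Rik had a peak after Aroclor1260 alone. ENSMUSG00000097221 had a peak with each reference after either single exposure. The losses against input alone were led by Ppara, the fatty acid-sensing nuclear receptor. It had no combination peak against input and 3 up to 11.8 against IgG, while the control had 1 of 8.59 and 5 up to 11.5. Lifr, the receptor of leukaemia inhibitory factor, had no combination peak against input and 11.4 against IgG, while the control had 5.80 and 10.6. Ppig, Dnajb12, Kbtbd7, Zc3h4 and Tob1 likewise had combination peaks against IgG, up to 8.80, 7.27, 5.20, 9.93 and 15.9. Cnnm2 had 3 combination peaks up to 16.0 against IgG and no control peak there, so the references pointed opposite ways for it. Gm21992 did so too, with a combination fold of 2.87 against IgG and a control fold of 1.44 against input. Otub2 and Slc38a11, with control folds of 2.29 and 1.44 against input, had no peak in either IgG list.

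Within genes that had peaks in both treatments, coverage was compared. Against input, 246 identifiers had 686 combination peaks and 589 control peaks. More peaks after the combination were listed for 84, an equal number for 117 and fewer for 45. By exonic bases the split was 191 more, 18 equal and 37 fewer, with medians of 942 bp after the combination and 647 bp in the control. Against IgG, 207 of 542 had more peaks, 188 an equal number and 147 fewer, and the medians were 949 and 794 bp. Of the 218 identifiers in all 4 lists, 37 had more and 15 had fewer combination peaks with both references.

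Fmo5, a flavin monooxygenase of liver, headed the genes with more peaks. It had 10 combination peaks against input and 9 against IgG, and 2 and 5 in the control. Against IgG its peak near the high-coordinate end had a fold of 15.4 after the combination, at chr3:97654535-97654934, and 2.46 in the control. Apob, the core protein of secreted lipoprotein particles, had 13 and 8 combination peaks, and 8 and 6 in the control. Its strongest input peak had 18.0 after the combination, at chr12:8007781-8009729, and 13.9 in the control, at chr12:8007831-8009979. Against IgG, 1 control peak of 6 blocks covered the whole stretch that the combination list divided into 8, so the number of peaks also depends on how the caller joined neighbouring windows. B3galt1, Upp2, Fam20c, Cp, Rapgef4, Trib1 and 2510039O18Rik followed. Trib1, a pseudokinase that controls plasma lipids, had 7 combination peaks with each reference, and 4 and 5 in the control. The plus-strand identifier at the Bcl9l locus headed the genes with fewer peaks. It had 3 and 4 combination peaks up to 9.50 and 26.6, and 6 and 10 control peaks up to 3.84 and 6.60. Apon, Dbp, Ccdc71, Gdf2, Ninj1, Mgat1, Pura, Cebpa and Kng1 followed. Gdf2, the ligand BMP9 of liver endothelium, had 1 combination peak with each reference, of 14.6 and 18.8, and in the control 2 up to 6.90 and 4 up to 12.2. A smaller number of peaks went with higher listed folds with both references at Bcl9l, Gdf2 and Cebpa, and also at Dbp, Ccdc71, Ninj1 and Kng1. The control fold was the higher one against IgG at Mgat1 (12.2 against 7.71) and Apon (6.20 against 5.30). It was also higher against input at Pura (6.70 against 5.83).

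**Figure D5:**
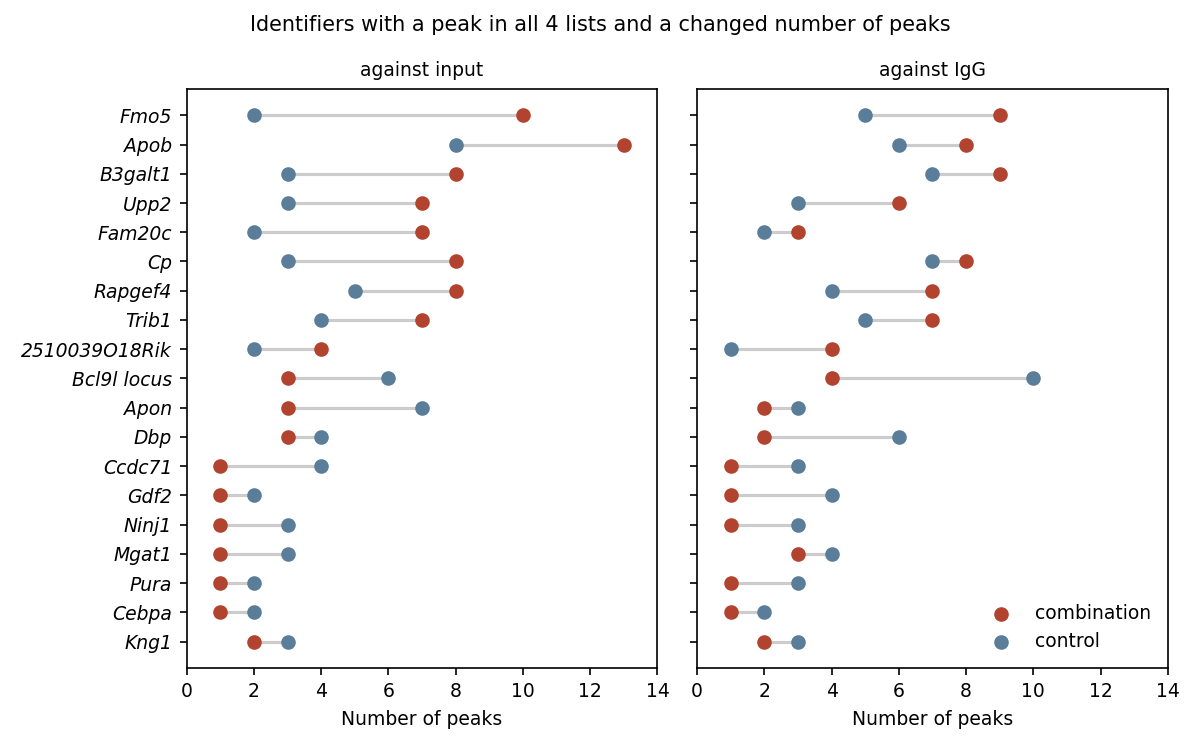
Number of peaks after the combination (red) and in the control (blue), against input (left) and IgG (right), for named identifiers with the most additional combination peaks (upper rows) and for the 10 with the fewest relative to control (lower rows), among those in all 4 lists. Fmo5 had 10 and 9 combination peaks and 2 and 5 control peaks, and the Bcl9l locus 3 and 4 against 6 and 10.

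The strongest peaks were mostly shared. Jund, a subunit of AP-1, had the highest fold against input in both treatments, with 53.9 after the combination and 37.3 in the control, and against IgG it had 92.4 and 41.5. Gid8, of the GID ubiquitin ligase, had 36.5 and 48.5 after the combination, and 25.2 and 32.2 in the control. Bmp2, a ligand from liver endothelial cells, had 32.2 and 39.1 after the combination, and 18.6 and 37.5 in the control. Herc2, a large ubiquitin ligase, had 38.4 after the combination and 13.9 in the control against input, and no peak against IgG in either. Agtr1a, the angiotensin receptor, had 31.3 and 66.4 after the combination, and 16.9 and 30.9 in the control. Tor1aip2 had 49.0 after the combination and 15.8 in the control against IgG. Against IgG, Depp1 had 41.8 after the combination and 41.0 in the control, and Zcchc2 22.0 and 38.0. ENSMUSG00000080058, a minus-strand identifier whose 2 combination peaks against input lie within that of Jund, so that reads of the strands may not be told apart, had 32.9 and 44.1 after the combination, and 26.7 and 37.8 in the control. Ubtd1 had 21.2 and 25.3 after the combination, and 18.0 and 19.2 in the control. Of the 5 strongest combination genes in each list, Arhgap29 was the only one without a control peak.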

How the data were processed

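The submitters' processing notes name BWA 0.7.17, Trimmomatic, FastQC 0.10.1 and bcl2fastq 2.20.0.422, and the build mm10. The list titles name MeTPeak as the caller, and its version and settings were not given in the sources used here. Per the file headers, each deposited peak has a fold enrichment, which is a linear ratio, a p-value, the log10 of the p-value and of the false discovery rate, and its exonic blocks, all made by the authors. The largest false discovery rate in the 4 lists was 0.0490. Spans were intersected with Python 3.11.15 and pandas 2.3.3 and checked on simulated peaks. Identifiers were named from RefSeq GRCm38.p6 by the gene that held at least 80% of their exonic peak bases and was not known to lie on the other strand. Of 1512 identifiers, 1091 matched by strand, 278 by place and 20 at a locus of both strands, and 123 were unnamed. Named genes were the 25 strongest gained, all lost with both references, the 15 strongest lost against input, the 10 largest differences each way in peak number, list members gained or lost with both, and the 5 highest folds per list. Other list members were named after their values were seen, and some results are not reported here. The members and the 34 lists were chosen with earlier results of these data known.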

Additional observations from a re-analysis of the deposited data

How the results depend on the processing

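No paired analysis was possible because each list pools all animals of a treatment, and no replicate could be left out for the same reason. Of 50 alternative values, 28 stayed within the counting interval or, for counts, within 1.5 times, and 22 moved. With IgG as reference, 59.7% of combination peaks were absent from the control, 74.6% of control peaks were found, 25.8% of new peaks lay in genes with a control peak and 85 genes were lost. With an equal number of peaks ranked by false discovery rate, these values were 75.3% absent and 30.5% found, with 180 genes gained against input, 59 gained with both references, 169 lost against input and 56 lost with both. Ranked by fold, a choice made after seeing the data, they were 55.3% absent, 56.5% found, 5.25% of new peaks in genes with a control peak, 247 gained, 101 gained with both, 62 lost and 14 lost with both. A fold of at least 2 gave 93.1% found and 3 genes lost with both. Reciprocal overlap of 50% gave 86.4% absent, 49.7% found and 19.1% of new peaks in genes with a control peak. The trimmed lists hold fewer peaks and the reciprocal rule is stricter by construction. For IgG as reference, the cause was not tested. Requiring a false discovery rate of at most 0.01, ignoring strand, joining identifiers of one symbol, or overlapping exonic blocks moved none of the values. Depth is unknown, and its part in list length and in the number of gained genes was not tested.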
